A study of Rattus norvegicus with 8 samples.

Results

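Steroid-metabolizing dehydrogenases and reductases (Hsd17b2, Hsd11b1, Srd5a1, Akr1c9), sulfotransferases (Sult1e1, Sult1a1, Sult2a1) and the hydroxy acid oxidase Hao2 were examined in the livers of 8 rats. The 8 genes were chosen by their measured values on these same arrays: their levels, the wide range of Hsd17b2 between rats, the difference between diets and their movement together. All of these are therefore given as descriptions that support nothing, and the members' limma calls stand below only as counts beside those of all genes. A gene was measured by the probe sets that the platform annotation assigns to it and to no other gene, under its current or an older symbol. By this rule 7 of the 8 genes had a value, among 14217 genes with such a probe set on the array. Srd5a1, which reduces testosterone to dihydrotestosterone, had no such probe set and was not analysed here.

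Each rat gave 1 liver RNA sample and 1 Affymetrix 3' expression array. All rats were male Sprague-Dawley rats (Jcl:SD) aged 7 weeks, fed for 2 weeks on the rodent chow CRF-1 enriched per kg with cholesterol (10 g) and cholic acid (5 g). The control rats received this diet alone, and the L. brevis rats received it with 10 g per kg of freeze-dried, viable Lactobacillus brevis 119-2, a lactic acid bacterium from turnip. For the control arrays the source label gives only CRF-1, and the cholesterol and cholic acid come from the design text of the series. The study fed 11 rats per diet, of which 4 per diet are on arrays, with no label on how they were picked. No group of the series lacked cholesterol and cholic acid, so all levels below are those of livers under that load. The study concerns hepatic cholesterol, and the comparison asks what the bacterium changed in the liver.

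The liver activates, inactivates and clears steroid hormones. Hydroxysteroid dehydrogenases switch a steroid between its active and inactive form by oxidising a hydroxyl group or reducing a ketone, and sulfotransferases move a sulfate group from the donor PAPS onto a steroid or phenol, which makes it soluble and unable to bind its receptor. In rat liver several such genes differ between males and females, under the control of the pattern of growth hormone secretion.

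Hsd17b2 and Hsd11b1 had no entry among the promoters used, so no sequence is printed for them. Of the 6 members with an entry, 3 were picked for printing by the diet and rat patterns below. They were Sult1e1 and Hao2, whose levels ranged widely and moved with Hsd17b2, and Sult1a1, whose level ranged little. The sequences are RefSeq's, on rat build GRCr8, the 250 bases before the start site, 5′ to 3′ on the gene's strand, at chr14:20701230-20701479 on the plus strand for Sult1e1, chr2:188913134-188913383 on the minus strand for Hao2 and chr1:190706113-190706362 on the minus strand for Sult1a1. For Sult1e1 and Hao2 the start site used lies inside the span that RefSeq gives the gene. Capitals mark the matches to the motifs searched.
Sult1e1: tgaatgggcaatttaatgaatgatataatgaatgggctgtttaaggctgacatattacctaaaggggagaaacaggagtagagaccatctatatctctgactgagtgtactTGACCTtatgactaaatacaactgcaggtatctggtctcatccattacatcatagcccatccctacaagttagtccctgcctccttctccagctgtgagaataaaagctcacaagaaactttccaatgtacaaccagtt
Hao2: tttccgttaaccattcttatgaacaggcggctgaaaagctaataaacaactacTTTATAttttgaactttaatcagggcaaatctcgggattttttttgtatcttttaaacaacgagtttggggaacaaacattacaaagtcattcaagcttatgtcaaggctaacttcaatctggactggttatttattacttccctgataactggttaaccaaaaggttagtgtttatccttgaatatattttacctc
Sult1a1: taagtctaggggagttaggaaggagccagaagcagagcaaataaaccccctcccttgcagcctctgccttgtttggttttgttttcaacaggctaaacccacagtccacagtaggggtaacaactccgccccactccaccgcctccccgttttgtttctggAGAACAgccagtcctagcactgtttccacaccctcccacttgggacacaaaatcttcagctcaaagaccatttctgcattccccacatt
On both strands, 5 motifs were searched: the HNF1 half-site GTTAAT, the nuclear receptor half-site AGGTCA, the STAT5 site TTCNNNGAA, the glucocorticoid receptor half-site TGTTCT and the TATA box TATAAA. None of them overlapped another in these windows. Sult1e1 held 1 nuclear receptor half-site, on the opposite strand at positions -139 to -134 from the start site. A match to AGGTCA stood in 14.1% of all 33469 promoters of that length in the table. Sult1a1 held 1 glucocorticoid receptor half-site, on the opposite strand at -89 to -84, a motif found in 17.5% of promoters. Hao2 held 1 TATA box sequence, on the opposite strand at -197 to -192, found in 12.9% of promoters. The half-site GTTAAT (6.45% of promoters) and TTCNNNGAA (7.67%) matched none of the 6 members with an entry. Of the members with an entry that are not printed, Sult2a1 held 1 TATA box at -50 to -45, and Akr1c9 and Srd5a1 held no match. A match is a description of letters and not a binding site. The promoters of Hao2 and Sult2a1 were low in G and C, at 33.2% and 34.4% against a median of 51.2% over all promoters.

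Values below are the deposited log2 signals, so 1 unit is a factor of 2, and differences are L. brevis minus control. A probe set's level is compared only with itself, since probe sets differ in brightness for the same amount of RNA. A probe set or gene is called varying if its highest and lowest of the 8 arrays lay more than 0.01 log2 apart, because the deposited values of 24719 of the 31042 probe sets tested were the same on all arrays to within that limit. The other 6323 probe sets covered 4159 varying genes, and all 7 measured members were among them. The hepatocyte marker albumin lay between 14.26 and 14.31 on all 8 arrays. Of the adrenal cortex markers Star, Cyp11a1, Cyp11b1 and Cyp21a1 did not vary, with values from 5.84 to 6.18 that are below the array medians of 6.61 to 6.63, and Cyp17a1 varied with a diet difference of -0.74.

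Hsd17b2 had the widest range between rats of all the members. The enzyme oxidises estradiol to estrone and testosterone to androstenedione, which inactivates both. On its probe set, 1387156_at, the control rats had 7.31, 8.14, 8.38 and 11.60 log2, and the L. brevis rats 6.29, 7.07, 11.94 and 15.22. Both groups held low and high rats: L. brevis 1 and 2 were the lowest of all 8, and L. brevis 3 and 4 the highest, with control 4 just below them. In each diet the signal rose with the replicate number. From the lowest to the highest rat the deposited signal differed by 8.93 log2, and within the control rats alone by 4.30, or 19.7-fold. The 6.29 of L. brevis 1 was under the median of its array, 6.62, and was not shown to be above background, so no fold is given for the whole range. The 15.22 of L. brevis 4 equalled the highest value on its array, while the highest values of the other arrays were 14.55 to 14.69. Whether the 15.22 reflects the RNA level or the array was not tested. Of the 4159 varying genes, 0.0721% had a range at least as wide, which is 3 genes with Hsd17b2 itself. The diet difference was 1.27 (SE 2.28), from 8.86 ± 1.89 to 10.13 ± 4.21 (SD, n = 4 each), and it is smaller than its own standard error. It rested on L. brevis 4: without that rat it was -0.42, and the range over the other 7 rats was 5.65.

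**Figure D1:**
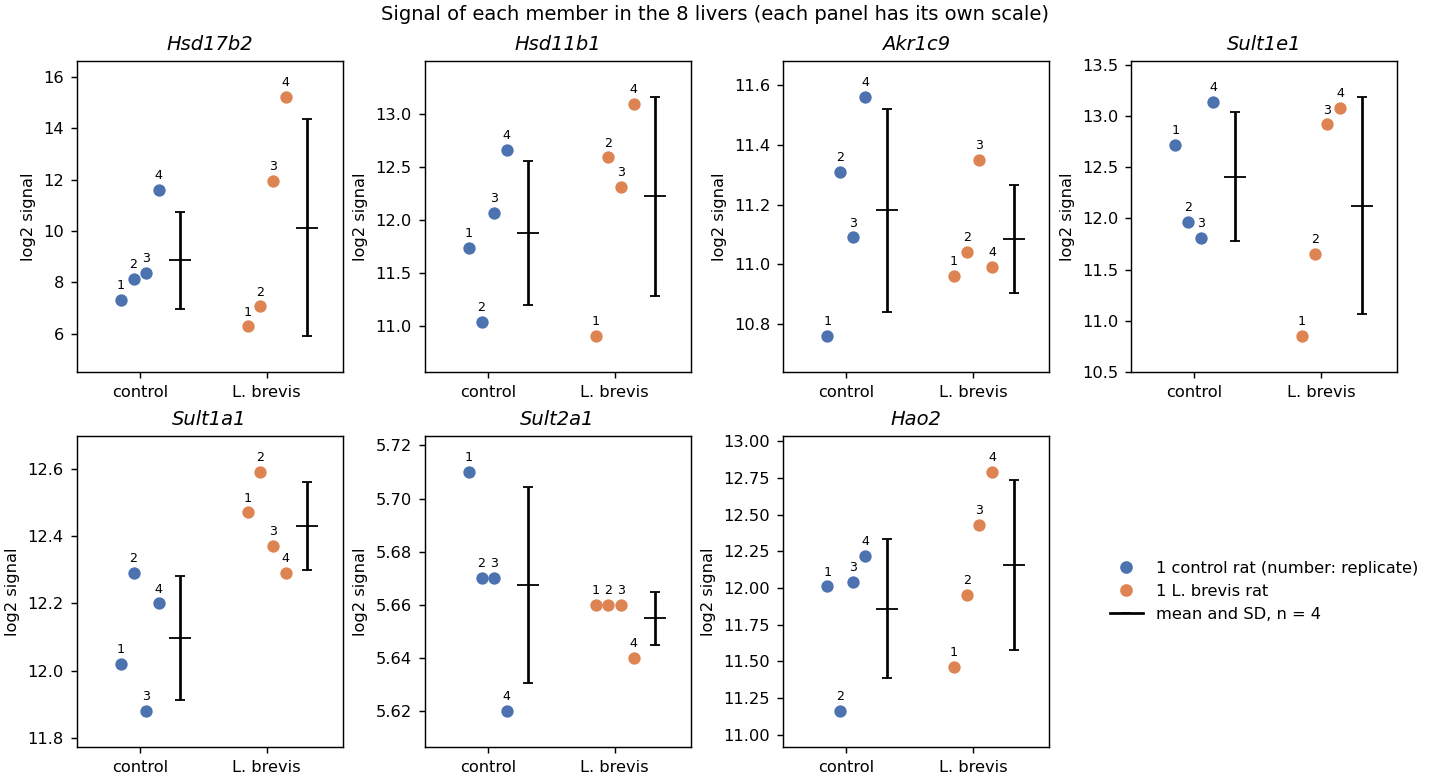
The deposited log2 signal of each of the 7 measured members in each rat, 1 panel per gene with its own scale, 1 numbered point per rat, and the mean with its SD (n = 4) beside each group. Hsd17b2 spreads from 6.29 to 15.22, whereas Sult1a1 stays between 11.88 and 12.59 and Sult2a1 near 5.66.

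Hsd11b1 ranged over 2.18 log2, or 4.52-fold, between the 8 rats. In liver it works as a reductase that regenerates active corticosterone from 11-dehydrocorticosterone. On probe set 1386953_at the control rats had 11.74, 11.04, 12.07 and 12.66 log2, and the L. brevis rats 10.91, 12.59, 12.31 and 13.09. The lowest and the highest rat were both on L. brevis, and the groups overlapped over most of their range. The diet difference was 0.35 (SE 0.57), from 11.88 ± 0.68 to 12.23 ± 0.93 (SD, n = 4 each). A range at least as wide was found in 5.67% of varying genes.

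Akr1c9, the 3-alpha-hydroxysteroid dehydrogenase that reduces dihydrosteroids and binds bile acids, gave different pictures by probe set. Its current symbol in the reference table is Akr1c14. The brightest probe set, 1370563_at, had 10.76, 11.31, 11.09 and 11.56 log2 in control rats and 10.96, 11.04, 11.35 and 10.99 in L. brevis rats. Its diet difference was -0.09 (SE 0.19) and its range 0.80, or 1.74-fold. The probe set 1370708_a_at had 8.78, 10.04, 9.26 and 10.62 in control rats and 9.30, 10.44, 10.91 and 10.61 in L. brevis rats, a range of 2.13 with a diet difference of 0.64 (SE 0.53). The probe set 1396933_s_at had 9.79, 10.85, 10.45 and 11.46 in control rats and 10.33, 10.96, 11.43 and 11.16 in L. brevis rats, with a diet difference of 0.33 (SE 0.41). The direction of the diet difference depended on the probe set, and for 1370563_at it was 0.03 without control 4. The Akr1c genes form a family of relatives, so signal from relatives may be part of the values of these probe sets. This was not tested. The pair 1370708_a_at and 1396933_s_at correlated over the 8 rats at r = 0.97, and each correlated with the brightest at a lower r of 0.68 and 0.80.

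Sult1e1 sulfates estrogens. On probe set 1368733_at the control rats had 12.72, 11.97, 11.81 and 13.14 log2, and the L. brevis rats 10.85, 11.65, 12.92 and 13.08. L. brevis 1 and 2 lay below every control rat, and L. brevis 3 and 4 lay level with the higher controls. The range was 2.29 over all rats, or 4.90-fold, and 2.23 within the L. brevis rats. The diet difference was -0.29 (SE 0.61), from 12.41 ± 0.63 to 12.12 ± 1.06 (SD, n = 4 each), and it was 0.14 without L. brevis 1. A range at least as wide was found in 4.95% of varying genes.

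Sult1a1, the phenol sulfotransferase that acts on small phenols and phenolic steroids, was the only measured member whose groups did not overlap. On probe set 1370019_at the control rats had 12.02, 12.29, 11.88 and 12.20 log2, and the L. brevis rats 12.47, 12.59, 12.37 and 12.29. The separation was narrow, because L. brevis 4 lay 0.00156 log2 above control 2. The diet difference was 0.33 (SE 0.11), 1.26-fold higher, from 12.10 ± 0.18 to 12.43 ± 0.13 (SD, n = 4 each). The whole range was 0.71 and 47.9% of varying genes had a range at least as wide. Over all alternatives run the difference kept its sign, from 0.25 to 0.43.

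Sult2a1, the hydroxysteroid sulfotransferase of dehydroepiandrosterone and bile acids, hardly varied. Its probe set, 1369570_at, had 5.71, 5.67, 5.67 and 5.62 log2 in control rats and 5.66, 5.66, 5.66 and 5.64 in L. brevis rats, all below the array medians and with overlapping groups. The range was 0.09 and 97.3% of varying genes had a range at least as wide. The diet difference was -0.02 (SE 0.02), and 0.02 after median centring of the arrays. The sulfotransferase 2A genes are close relatives, and the relative Sult2a6 spread from 6.54 to 11.24 over the 8 rats (control 6.54, 10.61, 9.94 and 10.16, L. brevis 9.40, 9.39, 11.24 and 10.10).

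Hao2 is not a steroid enzyme: it is a peroxisomal flavoenzyme that oxidises long-chain 2-hydroxy acids. On probe set 1387139_at the control rats had 12.01, 11.16, 12.04 and 12.22 log2, and the L. brevis rats 11.46, 11.95, 12.43 and 12.79. L. brevis 3 and 4 lay above all control rats, and the lowest rat was a control. The diet difference was 0.30 (SE 0.37), from 11.86 ± 0.48 to 12.16 ± 0.58 (SD, n = 4 each), and the range was 1.64, or 3.11-fold, which 10.6% of varying genes reached.

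**Figure D2:**
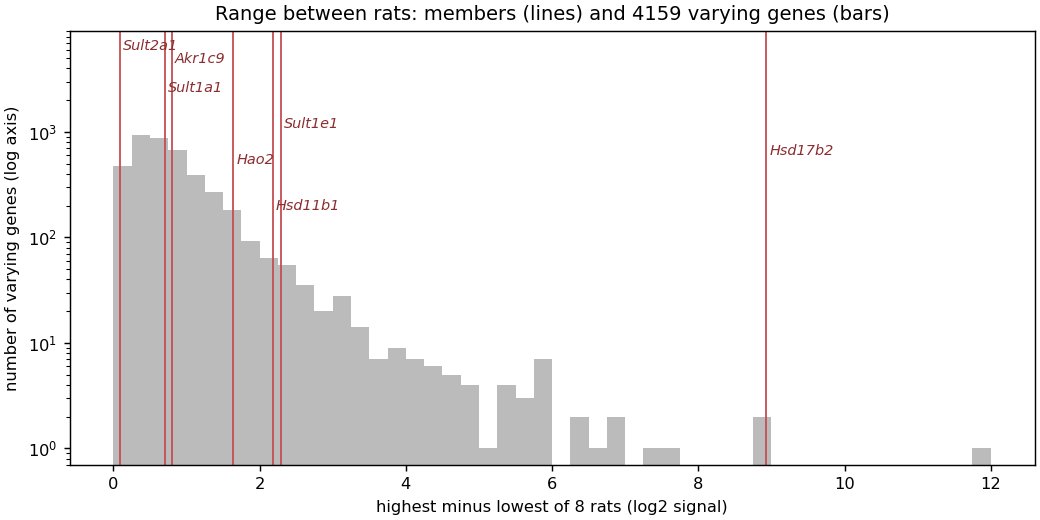
Range between the highest and the lowest of the 8 rats (log2) for each measured member (lines), on a histogram of the ranges of the 4159 varying genes (bars, with their number on a log axis). The 4 members with a range over 1 log2 are Hsd17b2, Sult1e1, Hsd11b1 and Hao2, and the median varying gene has a range of 0.69.

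Set side by side, 4 measured members were higher and 3 lower on the L. brevis diet, with a median difference of 0.30, against -0.03 over varying genes, of which 44.7% were higher. A fit with limma over all 31042 probe sets called 0 of the 7 at an adjusted p under 0.05, and 0.142% of all probe sets passed this rule. Of the 44 probe sets called, 37 were not varying, so that their differences are at most 0.01 log2, and 7 varied. When 1 rat was left out 67 to 180 were called, of which 3 to 49 varied, fewer than 7 in 6 of the 8 fits and 0 of them members. Fitting only the varying probe sets also called 0 of the 7, with 0.0633% called. At an unadjusted p under 0.05 the count was 1, Sult1a1, against 21.3% of varying genes. The groups did not overlap in 1 member, Sult1a1, against 10.6% of varying genes. Nothing is read from these counts, since the diet difference was among the values that chose the members. A range over 1 log2 was seen in 4 members, and in 29.0% of varying genes.

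A quality signal of the arrays moved with several members. The GAPDH control probe sets, whose 5' minus 3' signal is lower where RNA is degraded or labelled copies are short, gave -2.89, -1.83, -2.93 and -1.98 log2 in control rats and -2.20, -1.30, -0.94 and -0.68 in L. brevis rats. The groups overlapped only through L. brevis 1, and L. brevis 2, 3 and 4 lay above every control rat. The signal thus went largely with diet, and it cannot be fully told apart from diet on these arrays. The highest values belonged to L. brevis 3 and 4, the same rats in which Hsd17b2 and Hao2 were highest. Over the 8 rats this GAPDH difference had a Pearson r of 0.66 with Hsd17b2, 0.68 with Sult1a1, 0.52 with Hsd11b1, 0.46 with Hao2, 0.33 with Sult1e1, 0.28 with Akr1c9 and -0.59 with Sult2a1. On deviations from each diet's mean r was 0.74 for Hsd17b2, 0.69 for Sult1e1, 0.62 for Akr1c9, 0.51 for Hsd11b1, 0.35 for Hao2, 0.27 for Sult1a1 and -0.54 for Sult2a1. With the GAPDH difference as a covariate the diet difference became -3.05 (SE 2.44) for Hsd17b2, -1.37 (SE 0.70) for Sult1e1 and -0.40 for Hsd11b1, and it stayed positive at 0.25 for Sult1a1. Without L. brevis 3 and 4 it was -2.18 for Hsd17b2, -1.16 for Sult1e1, -0.13 for Hsd11b1, -0.15 for Hao2 and 0.43 for Sult1a1. Hsd17b2, Hsd11b1 and Hao2 changed sign in both settings, Hao2 to -0.03 with the covariate.

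**Figure D3:**
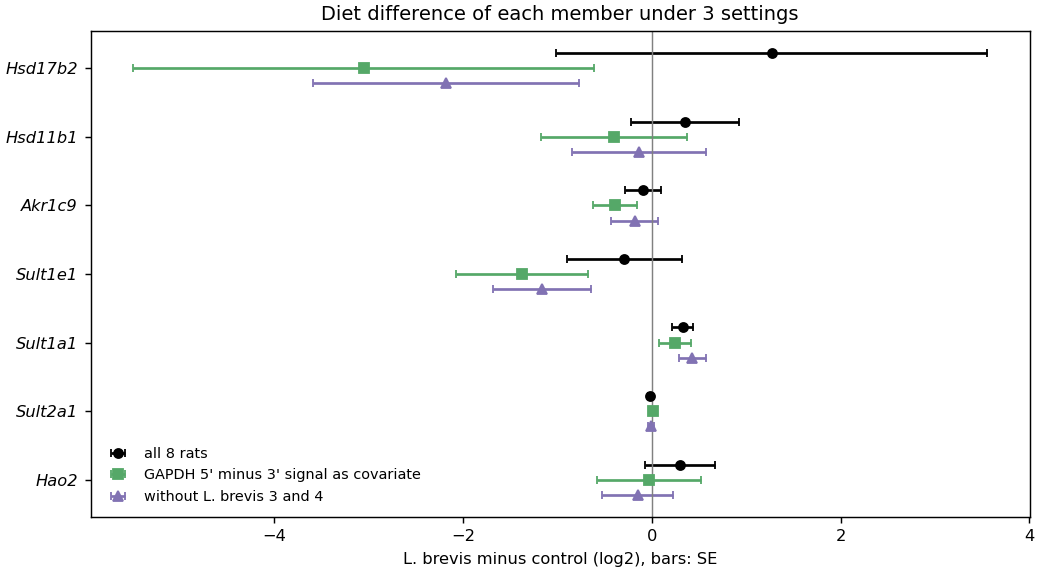
Diet difference (L. brevis minus control, log2) of each measured member, with its SE as the bar, over all 8 rats (circles), with the GAPDH difference as covariate (squares) and without L. brevis 3 and 4 (triangles). Hsd17b2 moves from 1.27 to -3.05 and -2.18, and Sult1a1 stays above 0 at 0.33, 0.25 and 0.43.

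Markers of other cells also differed between rats. Skeletal muscle markers had a mean level of 6.51 to 6.62 in the control livers and of 6.56 to 8.46 on L. brevis, with 8 of 10 varying. All 8 were higher over all rats, but 4 were higher and 4 lower without L. brevis 2. The highest list level was that of L. brevis 2, whose Acta1 (muscle actin) was 12.45 against 5.08 to 5.54 in the other rats. Without L. brevis 2 the member differences were 2.29 for Hsd17b2, 0.23 for Hsd11b1, -0.08 for Akr1c9, -0.13 for Sult1e1, 0.28 for Sult1a1 and 0.37 for Hao2. All 6 endothelial markers were lower on L. brevis on their brightest probe sets, while another probe set gave 0.02 for Kdr and -0.15 for Lyve1. Their mean level was 8.66 to 9.28 in control livers against 8.38 to 8.57, so these groups did not overlap, as with Sult1a1. Of single varying genes, 10.6% had groups without overlap. In bulk liver, fewer cells of a type and less RNA per cell cannot be told apart. The part of the endothelial markers in the value of Sult1a1 was not tested. Of the macrophage markers 4 of 5 varied, 3 higher and 1 lower, and Adgre1 was 7.39 to 7.79 in control rats against 7.92 to 8.62, without overlap. The list level was 8.93 to 9.27 in control livers and 9.06 to 9.34 on L. brevis. All 3 erythroid markers varied, with a list level of 8.48 to 9.29 in control livers and 8.31 to 10.04 on L. brevis, and Hbb (14.31) and Alas2 (8.92) were highest in L. brevis 2. Among kidney, small intestine and exocrine pancreas lists, 1 gene each varied.

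Hsd17b2, Hsd11b1, Sult1e1 and Hao2 moved together across rats. The points share 8 arrays, so each correlation is a description over n = 8 rats and no p is given. Between Hsd17b2 and Hao2 r was 0.80 (rho 0.86), between Hsd17b2 and Sult1e1 0.79 (rho 0.83), and between Hsd17b2 and Hsd11b1 0.73 (rho 0.69). Hsd11b1 and Hao2 had the highest r of the 21 pairs, 0.89. Sult1e1 had an r of 0.72 with Hao2 and of 0.66 with Hsd11b1. Computed on deviations from each diet's mean, r was 0.86 for Hsd17b2 and Sult1e1, 0.79 for Hsd17b2 and Hao2, 0.71 for Hsd17b2 and Hsd11b1 and 0.89 for Hsd11b1 and Hao2. After the 2 rats farthest from the median of Hsd17b2 were left out, r was 0.77 with Sult1e1, 0.56 with Hsd11b1 and 0.48 with Hao2. Without the 2 rats farthest from the median of Hsd11b1, its r was 0.68 with Hao2 and 0.28 with Sult1e1. Sult1a1 did not follow them, with an r of -0.05 to Hsd17b2. Sult2a1 had an r of -0.57, but over a range of only 0.09 log2 below the array medians, so nothing is read from it. Akr1c9 had an r of 0.36 to Hsd17b2 over all rats and of 0.84 without the 2 rats farthest from the median of Hsd17b2.

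**Figure D4:**
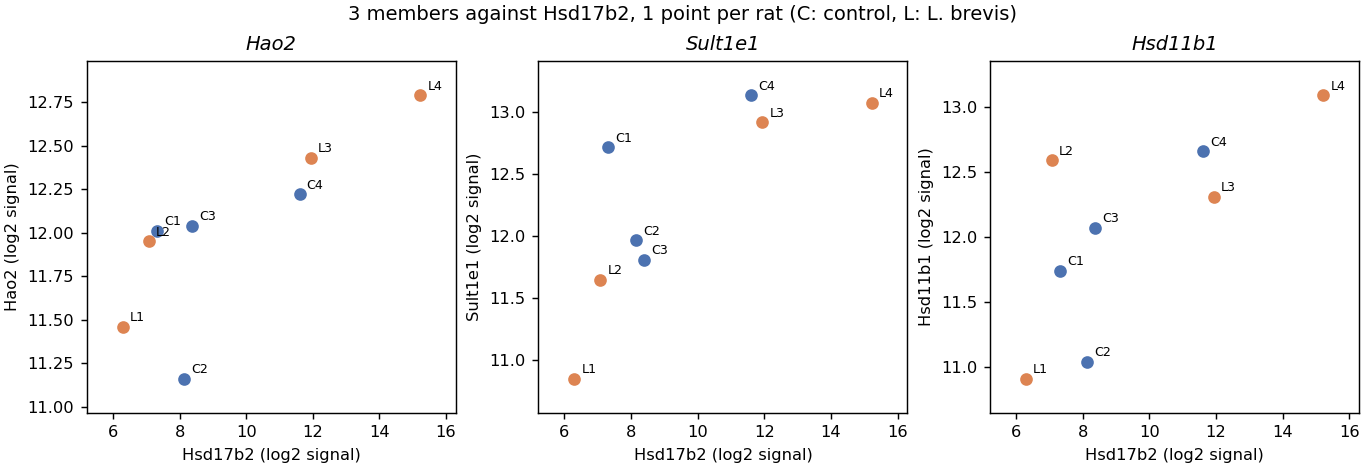
Log2 signal of Hao2, Sult1e1 and Hsd11b1, 1 panel each, against that of Hsd17b2, with 1 point per rat (C for control, L for L. brevis, with the replicate number). All 3 tend to be higher where Hsd17b2 is higher, with r of 0.80, 0.79 and 0.73, but not in every rat. L. brevis 2 has 7.07 for Hsd17b2 and 12.59 for Hsd11b1. L. brevis 4 stands at the right end of each panel.

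Among varying genes the ones most like each wide member were named by their Pearson r over the 8 rats, with no statement on shared function. Most like Hsd17b2 were Cldn3, a tight junction claudin (r = 0.98), Adamts7, a secreted metalloprotease (0.97), and Ddc, aromatic amino acid decarboxylase (0.97). Cldn3 had 8.60, 8.54, 8.69 and 9.06 log2 in control rats and 8.38, 8.65, 9.30 and 9.73 in L. brevis rats. In all, 61 of the other 4158 varying genes had an r above 0.9 with Hsd17b2. The lowest r to Hsd17b2 were those of COX2, a mitochondrial subunit of cytochrome oxidase (-0.99, over a range of 0.11 log2), Ncald (-0.98) and Nop58, a nucleolar protein (-0.97). Most like Hsd11b1 were Cryz, a quinone reductase (0.97), Cyp2c11, a male-specific steroid hydroxylase (0.96), and Lrtm2 (0.96). Most like Sult1e1 were Tsc22d1 (0.94), the complement protease C1s (0.94) and the coregulator Cited2 (0.93). Most like Hao2 were Sepsecs, which makes selenocysteinyl-tRNA (0.97), Gpat4, a glycerol phosphate acyltransferase (0.97), and Stac3 (0.97, over a range of 5.87 log2).

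Over the 10 pathway lists, 7 of the 83 varying genes had an unadjusted p under 0.05, against 21.3% of all varying genes. Further steroid oxidoreductases were examined from a list of 35, of which 27 were measured and 16 varied. On L. brevis 10 were higher and 6 lower, with a median difference of 0.15, and 0 passed an adjusted p under 0.05 in limma, while 2 were higher at an unadjusted p under 0.05 and 0 were lower. The 2 were Hsd17b4, the peroxisomal bifunctional enzyme (difference 0.24, SE 0.09), and Hsd17b10, a mitochondrial dehydrogenase (0.19, SE 0.05, adjusted p = 0.347, limma). Without L. brevis 1 the difference of Hsd17b10 was 0.24 with an adjusted p = 0.0444 (limma), the only setting run that called it. That setting called 180 probe sets, 49 of them varying, against 44 and 7 over all rats. The third by p was Cbr4, a mitochondrial reductase (0.32, SE 0.14). Akr1c3, an aldo-keto reductase, had 6.20, 6.33, 7.07 and 7.91 log2 in control rats and 6.09, 7.24, 8.66 and 8.81 in L. brevis rats, which gave an r of 0.91 with Hsd17b2. Akr1c19 of the same list was highest in L. brevis 1 and lowest in L. brevis 4, the opposite of Hsd17b2. It had 8.62, 8.20, 8.04 and 8.06 in control rats and 8.69, 8.17, 7.81 and 6.92 in L. brevis rats. Akr1c3 and Akr1c19 were singled out after their values were seen, as were Hao1, Amacr, Hacl1, Sult1c2 and Cyp2a2 below.

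The sulfation list held 20 genes, 17 measured and 9 varying, of which 4 were higher and 5 lower, with a median of -0.02 that became 0.02 after median centring and -0.20 with the GAPDH covariate. None passed an adjusted p under 0.05 in limma, and 1, Slc26a1, was lower at an unadjusted p under 0.05. Slc26a1, a sulfate transporter, had 10.36, 10.07, 10.44 and 10.48 log2 in control rats and 10.10, 9.68, 9.92 and 9.87 in L. brevis rats, a difference of -0.44 (SE 0.12, adjusted p = 0.347, limma). The steroid sulfatase Sts had a difference of -0.38 (SE 0.44) and the nucleotidase Bpnt1 of -0.09. Sult1c2 spanned 5.39 to 11.13 over the 8 rats (control 8.04, 6.93, 9.44 and 10.05, L. brevis 5.39, 8.19, 9.93 and 11.13), with r = 0.85 to Hsd17b2 and 0.90 to Hsd11b1 and Hao2. Sult1c2 and Sult1c2a are near copies, so their signals cannot be fully told apart.

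Around Hao2, the hydroxy acid oxidase list had 10 genes, 9 measured and 8 varying, of which 5 were higher and 3 lower with a median of 0.14, which was -0.09 with the GAPDH covariate, -0.05 without L. brevis 3 and 4 and 0.02 without L. brevis 4. None passed an adjusted p under 0.05 in limma, nor an unadjusted p under 0.05. The 3 with the smallest p were Phyh, phytanoyl-CoA hydroxylase (-0.19), Acox2, a peroxisomal oxidase (0.16), and catalase Cat (-0.06). Hao1, glycolate oxidase, had 11.22, 11.29, 11.87 and 12.07 log2 in control rats and 10.96, 11.56, 12.02 and 12.42 in L. brevis rats, and its r with Hsd17b2 was 0.91. Amacr, the racemase of branched fatty acids and bile acid intermediates, had an r of 0.88 with Hsd17b2. With Hao2 r was 0.86 for Hao1 and 0.66 for Amacr, and with Hsd11b1 it was 0.49 for Amacr. Other genes of the list went the other way, with Phyh and Hacl1 lowest in L. brevis 4, where Hsd17b2 was highest. Hacl1 had 12.60, 11.30, 11.31 and 10.99 in control rats and 12.51, 12.23, 11.57 and 10.71 in L. brevis rats.

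Steroid receptors, carriers and redox partners gave 16 genes, 15 measured and 9 varying, 6 higher and 3 lower with a median of 0.16, which was -0.05 with the GAPDH covariate, and none passed an adjusted p under 0.05 in limma. Cyb5a, cytochrome b5, was higher by 0.66 (SE 0.21) and H6pd had a difference of -0.36 (SE 0.12), both at an unadjusted p under 0.05. H6pd makes the NADPH that Hsd11b1 uses; it had 10.25, 10.47, 10.05 and 10.24 log2 in control rats and 9.75, 9.72, 10.01 and 10.08 in L. brevis rats. The groups of H6pd came close at 10.05 and 10.08, and overlapped there. The glucocorticoid receptor Nr3c1 had a difference of 0.35 (SE 0.17).

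Of the glucocorticoid-responsive list, 9 of 10 measured genes varied, 7 higher and 2 lower, with a median of 0.25, which was 0.00 both with the GAPDH covariate and with array weights and 0.04 without L. brevis 1. Limma called 0 at an adjusted p under 0.05. Dusp1, a phosphatase, was higher by 1.14 (SE 0.40) and was the 1 gene at an unadjusted p under 0.05, but its other probe set gave 0.05. Fkbp5, a receptor chaperone, had a difference of -1.30 (SE 0.56) and, on its other probe set, of -0.52. Tdo2, tryptophan dioxygenase, had a difference of 0.57 (SE 0.28).

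Sex-biased rat liver genes were listed because the growth hormone pattern sets the sex difference of several steroid enzymes. All 6 male-biased genes varied, 4 higher and 2 lower, median 0.17 (0.00 with the GAPDH covariate and -0.09 without L. brevis 3 and 4), and Cyp3a18 (0.82, SE 0.33, adjusted p = 0.412, limma) was the 1 at an unadjusted p under 0.05. Without L. brevis 1 its difference was 1.14 with an adjusted p = 0.0452 (limma), in the setting that called 180 probe sets, 49 of them varying. Cyp2c11 had a difference of 0.25 (SE 0.31) and an r of 0.96 with Hsd11b1 and 0.92 with Hao2. Of the male-biased genes, an r with the members is given only for Cyp2c11 and Obp3. Cyp2a2 did not follow Hsd11b1: it was 12.61 in L. brevis 1 and 12.56 in L. brevis 4, the rats with the lowest and the highest Hsd11b1. Obp3, a urinary protein of a family with near-identical copies, had 9.77, 6.91, 9.86 and 10.52 log2 in control rats and 7.77, 11.03, 10.49 and 10.81 in L. brevis rats, and an r of 0.93 with Hsd11b1. Of the 8 female-biased genes 7 varied, 5 higher and 2 lower, median 0.15 (-0.03 with the GAPDH covariate), with none at an unadjusted p under 0.05; Cyp3a9 had 1.40 (SE 0.85), Cyp2a1 0.72 and Cux2 -0.03. Growth hormone signalling had 7 varying genes of 10, 4 higher and 3 lower, median 0.05 (-0.03 without control 2, -0.02 without L. brevis 3 and 4), with Onecut1 at 1.47, Bcl6 at -1.14 and Cish at 0.37. None of the 3 lists had a gene at an adjusted p under 0.05 in limma, and the last 2 had none at an unadjusted p under 0.05.

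Zonation was described by 2 lists. Of 7 measured pericentral genes 6 varied, 4 higher and 2 lower, with a median of 0.03 that was -0.32 with the GAPDH covariate and -0.18 without L. brevis 3 and 4. Their named genes were Cyp2e1 at 0.04, Slc1a2 at 0.07 and Glul at -0.36, while 2 other Glul probe sets gave 0.45 and -0.26. Of 7 measured periportal genes all 7 varied, 6 higher and 1 lower, median 0.11, with Sds at 2.04 (SE 1.07), Gls2 at 0.76 and Hal at 0.43. Neither list held a gene at an adjusted p under 0.05 or an unadjusted p under 0.05 in limma.

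**Figure D5:**
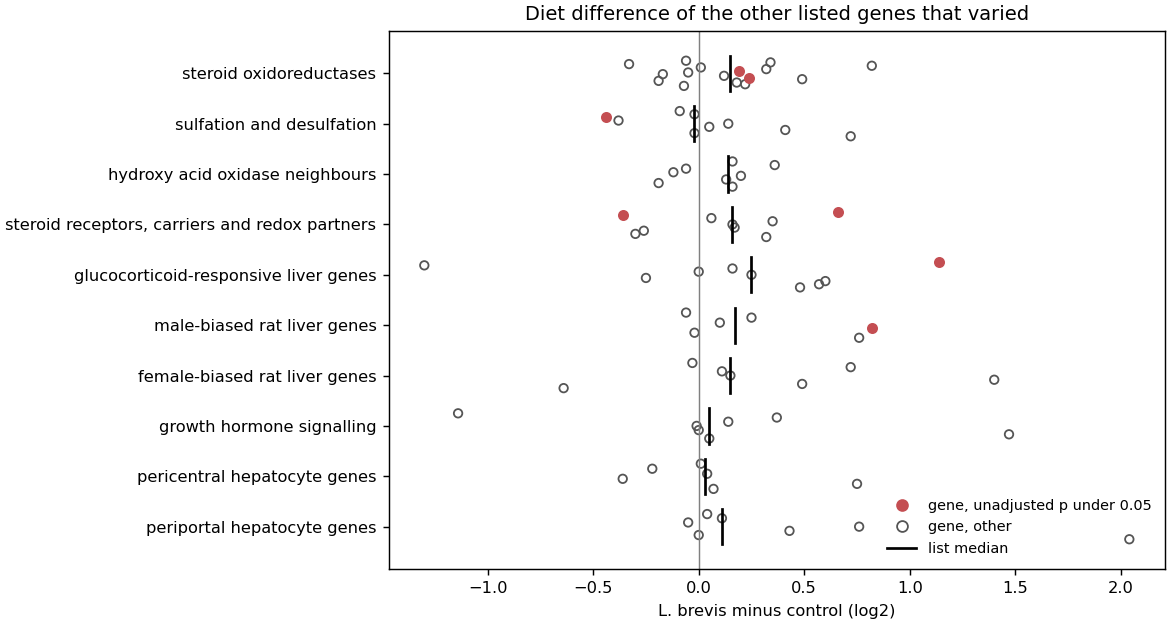
Diet difference (L. brevis minus control, log2) of each varying gene in the 10 pathway lists, 1 circle per gene in each list, filled at an unadjusted p under 0.05, with the list median as a black line. Pck1 is drawn in both the glucocorticoid-responsive and the periportal list. Medians lie between -0.02 for sulfation (0.02 after median centring) and 0.25 for glucocorticoid-responsive genes (0.00 with the GAPDH covariate), and 7 of the 83 genes have filled circles, against 21.3% of all varying genes.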

How the data were processed

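Liver RNA of 8 rats, 4 per diet, was measured on 1 Affymetrix 3' array each. The authors deposited 1 normalized log2 value per probe set and array (how probes were summarised and normalized was not given in the sources used here). Depth does not apply to arrays, whose number limits the precision. Where the processing set a probe set to the same value on all arrays, its level is not known to be equal in all rats. This held, within 0.01 log2, for 79.6% of probe sets, and 37 of the 44 calls fell on these. The table held 31099 probe sets, and 57 Affymetrix controls were left out. The platform annotation gave 20826 of the others 1 gene symbol, 436 several and 9780 none, and symbols were updated through gene identifiers. Each gene was read from its brightest probe set, by the mean of 8 arrays. L. brevis minus control was fitted with limma 3.58.1 in R 4.3.3. The variances were moderated by eBayes with trend = TRUE, and two-sided p-values were adjusted by Benjamini-Hochberg over all 31042 probe sets, with a threshold of 0.05, and the script was tested on simulated data. The labels call the rats of a group biological replicates.

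The members and the gene lists were chosen with earlier results of these data known. Named genes were the members, up to 3 varying genes per list with the smallest unadjusted p, and the 3 genes with the highest r to each member with a range over 1 log2 (for Hsd17b2 also the lowest); genes named otherwise were chosen after their values were seen. Alternatives were array weights, the GAPDH covariate, quantile normalization, median centring, no intensity trend, a filter on dim probe sets, varying probe sets only, other probe sets of a gene, the replicate number as a block, leaving out each rat and, chosen after seeing the data, leaving out L. brevis 3 and 4. Promoters came from a RefSeq table on GRCr8, which held 6 of the 8 members.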

Additional observations from a re-analysis of the deposited data

Results flagged for a closer look

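The members, every other gene named by its values except Akr1c19, Hacl1 and Cyp2a2, and all varying cell type markers were tested in each diet. This gave 184 groups of 4 rats in all. In 12 groups, 1 rat stood far from the others of its diet by Dixon's criterion for 4 values, which chance gives in about 1 group in 20. Of the members, only Sult2a1 met it, at 5.64 log2 in L. brevis 4 and 5.66 in each of the other L. brevis rats. Its relative Sult2a6 was 6.54 in control 1 and 9.94 to 10.61 in the other control rats. Obp3 was 7.77 in L. brevis 1 and 10.49 to 11.03 in the other L. brevis rats. Cish, a suppressor of cytokine signalling, was 7.26 in control 3 and 6.30 to 6.37 in the other controls.

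L. brevis 2 stood apart in 4 muscle genes. Acta1 was 12.45 against 5.29 to 5.48 in the rest of that group, and Myl11, a myosin light chain, 10.05 against 5.81 to 5.93. The troponin genes Tnnc2 and Tnnt3 were 10.09 against 6.17 to 6.32 and 8.49 against 5.61 to 5.92. Tnnt3 was also 6.12 in control 4, above the other controls, of which the lowest was 5.97. The smaller gaps were albumin (Alb) at 14.26 in control 1 against 14.29, the endothelial Lyve1 at 10.10 in L. brevis 1 against 9.85 to 9.86, and the claudin Cldn7 at 5.93 in control 4 against 6.10 to 6.14. No explanation was tested for these values.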

How the results depend on the processing

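No member was called by limma at an adjusted p under 0.05 in any setting run. Of all 31042 probe sets, 44 were called, of which 7 varied. The count was 77 with array weights, 21 with dim probe sets left out, 4 with median centring, 0 with quantile normalization, 4 over varying probe sets only, 180 (4 varying) without L. brevis 3 and 4, and 67 to 180 (3 to 49 varying) when 1 rat was left out. With the replicate block it was 128, of which 22 varied, and 6 of the 83 varying list genes had an unadjusted p under 0.05 in place of 7. The labels give replicate numbers but no pairing, so the numbers were not used to pair in the main fit. Deviations from the diet means of same-numbered rats correlated at 0.36, 0.20, 0.08 and 0.38, all positive. With the replicate block the difference of Hsd17b2 was 1.27 with an SE of 1.30, against 2.28 without it. What the shared order by replicate number stems from was not tested. The list count was 3 with the GAPDH covariate, 18 with array weights, 12 with median centring, 2 without L. brevis 3 and 4, and 4 to 13 when 1 rat was left out, the 13 without L. brevis 1. The difference of Hsd17b2 was -3.05 with the GAPDH covariate and -2.18 without L. brevis 3 and 4. That of Sult1e1 was -1.37 and -1.16 in these settings, and 0.31 with array weights. Akr1c9 was -0.39 with the covariate and 0.64 and 0.33 on its other probe sets, and Sult2a1 was 0.02 with median centring. The range of Hsd17b2 was 5.65 to 8.93 when 1 rat was left out, that of Sult2a1 0.05 to 0.09, and that of Akr1c9 2.13 and 1.66 on its other probe sets. The cause of these shifts was not tested. With 4 arrays per diet and no probe background given, small differences of dim genes such as Sult2a1 cannot be resolved.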
